A study of Mus musculus with 13 samples.

Results

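Genes of the serpin and plasminogen activator system were followed in sorted mouse eosinophils: Serpinb2, Serpinb1a, Serpinb6a, Serpinb9, Serpine2, Plau and Plaur, which are 7 of the 41743 genes in the table. The set was chosen by the level of Serpinb2, which is high in eosinophils of the thymus, so Serpinb2 in WT thymus is described and was not tested. The other members were taken by name, with earlier results of these data known. Eosinophils of thymus, lung and spleen were sequenced to ask how thymic eosinophils differ from those of other organs and whether thymocyte differentiation affects them. Rag-KO + anti-CD3 was the thymus of Rag2-/- mice, 10 days after injection of an antibody against CD3 epsilon (2 libraries). Rag-KO + control was the thymus of Rag-deficient mice 10 days after hamster IgG, with replicate 1 from a Rag2-/- and replicate 2 from a Rag1-/- mouse line (2 libraries). WT thymus, WT lung and WT spleen were from untreated C57BL/6N mice, the background of the Rag lines too, with 3 libraries each, and all mice were young adults. Rag-deficient thymocytes stop before they have rearranged a T cell receptor, and anti-CD3 drives them to the double-positive stage without one. Every library came from CD11b+ Siglec-F+ cells after bead enrichment for Siglec-F. Enzymes were used to dissociate thymus and lung but not spleen, which was mashed, and this difference in preparation cannot be told apart from the organ where WT spleen is compared. The sources used here do not say whether replicates came from separate mice, so p-values measure only the spread between these libraries.

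Plasmin, the protease that dissolves fibrin and cleaves matrix, is made from plasminogen by tissue plasminogen activator (Plat) or by urokinase (Plau), which is held at the cell surface by its receptor uPAR (Plaur). Serpins are suicide inhibitors that trap the protease that cleaves them. Serpinb2 (plasminogen activator inhibitor 2) and Serpine2 (protease nexin 1) inhibit urokinase. Serpinb1a, Serpinb6a and Serpinb9 belong, with Serpinb2, to the clade B serpins, which mostly stay inside the cell and guard leukocytes against proteases of their own granules. Serpinb1a inhibits neutrophil elastase, proteinase 3 and cathepsin G, Serpinb6a inhibits cathepsin G, and human SERPINB9 inhibits granzyme B.

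Serpinb2 (ENSMUSG00000062345) lies on the plus strand at chr1:107511423-107535478 of mm10, and Plaur on the plus strand at chr7:24462484-24475968. RefSeq promoter windows on GRCm38.p6 were matched for 5 of the 7 members. The 250 bases before the start are shown for both members whose level was highest in thymic eosinophils, 5′ to 3′ on the plus strand, with motif matches in capitals.
Serpinb2, chr1:107511173-107511422: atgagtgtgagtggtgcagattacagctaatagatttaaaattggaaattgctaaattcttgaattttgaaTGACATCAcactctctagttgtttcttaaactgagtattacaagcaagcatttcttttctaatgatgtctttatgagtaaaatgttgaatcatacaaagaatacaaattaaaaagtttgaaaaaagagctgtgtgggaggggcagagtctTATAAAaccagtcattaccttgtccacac
Plaur, chr7:24462233-24462482: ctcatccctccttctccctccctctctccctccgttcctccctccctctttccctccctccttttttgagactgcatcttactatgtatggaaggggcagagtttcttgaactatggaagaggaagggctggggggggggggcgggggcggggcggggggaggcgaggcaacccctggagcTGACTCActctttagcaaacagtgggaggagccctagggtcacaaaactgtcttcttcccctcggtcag
The motifs searched on both strands were the TATA box TATAAA, the AP-1 site TGACTCA and the CRE-like site TGACNTCA, none of which overlapped another in these windows. The Serpinb2 window shown held a TATA box starting 29 bases before the start and a CRE-like match, TGACATCA, starting 179 bases before it. A second Serpinb2 window, not shown, belongs to a later start. There the TATA box starts 116 bases before the start and is the only match. The Plaur window held an AP-1 match starting 69 bases before the start and neither of the others. Of all 32851 windows, 12.4% held the TATA box, 7.49% the CRE-like site and 4.46% the AP-1 site in the same 250 bases. These are matches of letters only.

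Library totals ran from 4765122 to 6431540 reads, and 3 reads of a gene of 1 kb stood for 0.466 to 0.630 RPKM (read counts scaled to gene length and library size). All 10 eosinophil markers, such as Siglecf and Ccr3, were above 0 in every library, with summed levels of 2021 to 7166 RPKM. Marker RNA of other cells stood apart in several libraries. The 11 neutrophil markers summed to 26700 RPKM in WT spleen replicate 3, against 36.4 and 54.7 in the other WT spleen libraries, and to 5274 in Rag-KO + control replicate 2, against 1019 in replicate 1. They summed to 68.9 and 204 in Rag-KO + anti-CD3, 2462 in WT thymus replicate 3, against 487 and 597 in the other WT thymus libraries, and 400 to 784 in WT lung. The granule genes Elane and Mpo, which define immature neutrophils, were at 0 in both Rag-KO + anti-CD3 libraries, in all WT lung libraries and in replicates 1 and 2 of WT thymus and of WT spleen. The 15 macrophage and monocyte markers summed to 3120 RPKM in Rag-KO + control replicate 2, and to 512 to 976 in the other libraries. The 8 dendritic cell markers summed to 314 RPKM in Rag-KO + anti-CD3 replicate 2 and to 157 in replicate 1, against 109 and 119 in Rag-KO + control, and to 28.1 to 44.5 in WT thymus, 8.77 to 83.4 in WT lung and 48.7 to 210.5 in WT spleen. Mitochondrial transcripts took 22.0% of the RPKM in WT spleen replicate 3 and 1.60% to 6.02% elsewhere. Across all genes, 4 libraries deviated from their groups in a like way, Rag-KO + control replicate 2 and the WT replicates numbered 3. Correlations of these deviations with WT spleen replicate 3 were 0.42 to 0.58, and the labels give no batch. Fewer eosinophils in a sorted sample and less of an RNA per eosinophil cannot be told apart in bulk libraries.

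Serpinb2 was among the most abundant transcripts of thymic eosinophils and was far lower in lung and spleen. Its level was 599 and 513 RPKM in Rag-KO + anti-CD3, 446 and 114 in Rag-KO + control, and 373, 482 and 634 in WT thymus. It was 28.0, 27.4 and 131 in WT lung and 41.8, 37.5 and 22.6 in WT spleen. Every WT thymus library was above every WT lung and WT spleen library, whereas the Rag-KO + control pair was split, with replicate 1 inside the WT thymus range and replicate 2 below the highest WT lung library. These values rest on 4759 to 9580 reads per library in WT thymus, 353 to 1633 in WT lung and 253 to 574 in WT spleen. By rank of RPKM within a library, Serpinb2 was gene 76 to 118 in WT thymus, 457 to 1857 in WT lung and 1336 to 1648 in WT spleen. On the log2(RPKM + 1) scale, which all fold changes below use and which understates the change of low genes, WT thymus was above WT spleen by 3.84 ± 0.56 (SE) and above WT lung by 3.35 ± 0.56.

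Mean Serpinb2 was 556 ± 60.7 RPKM in Rag-KO + anti-CD3 (SD, n = 2), 280 ± 235 in Rag-KO + control (n = 2), 496 ± 131 in WT thymus (n = 3), 62.3 ± 59.9 in WT lung (n = 3) and 34.0 ± 10.1 in WT spleen (n = 3). Rag-KO + anti-CD3 thus had the highest mean, followed by WT thymus, Rag-KO + control, WT lung and WT spleen. Every group overlapped its neighbour in this order, Rag-KO + control and WT lung through 1 library each. WT lung and WT spleen were compared by limma, since the choice of genes did not use that contrast, and did not pass the test (log2 fold change 0.50, 95% interval −0.76 to 1.76, adjusted p = 0.933). That difference rested on 1 library: without WT lung replicate 3 it was −0.24. The 14 markers of thymocytes and T cells followed the same split of organs. They summed to 38.7 and 33.2 RPKM in Rag-KO + anti-CD3, 7.78 and 3.08 in Rag-KO + control, 66.8, 39.2 and 16.1 in WT thymus and 3.96 or less in every WT lung and WT spleen library. Within WT thymus Serpinb2 was highest in replicate 3, where these markers were lowest, and the part of thymocyte RNA in the Serpinb2 level was not tested.

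In the annotation, the last part of Serpinb2 overlaps Serpinb10 on the same strand, so reads there could have been split between them, but Serpinb10 reached at most 7.25 RPKM, in WT lung replicate 3.

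**Figure D1:**
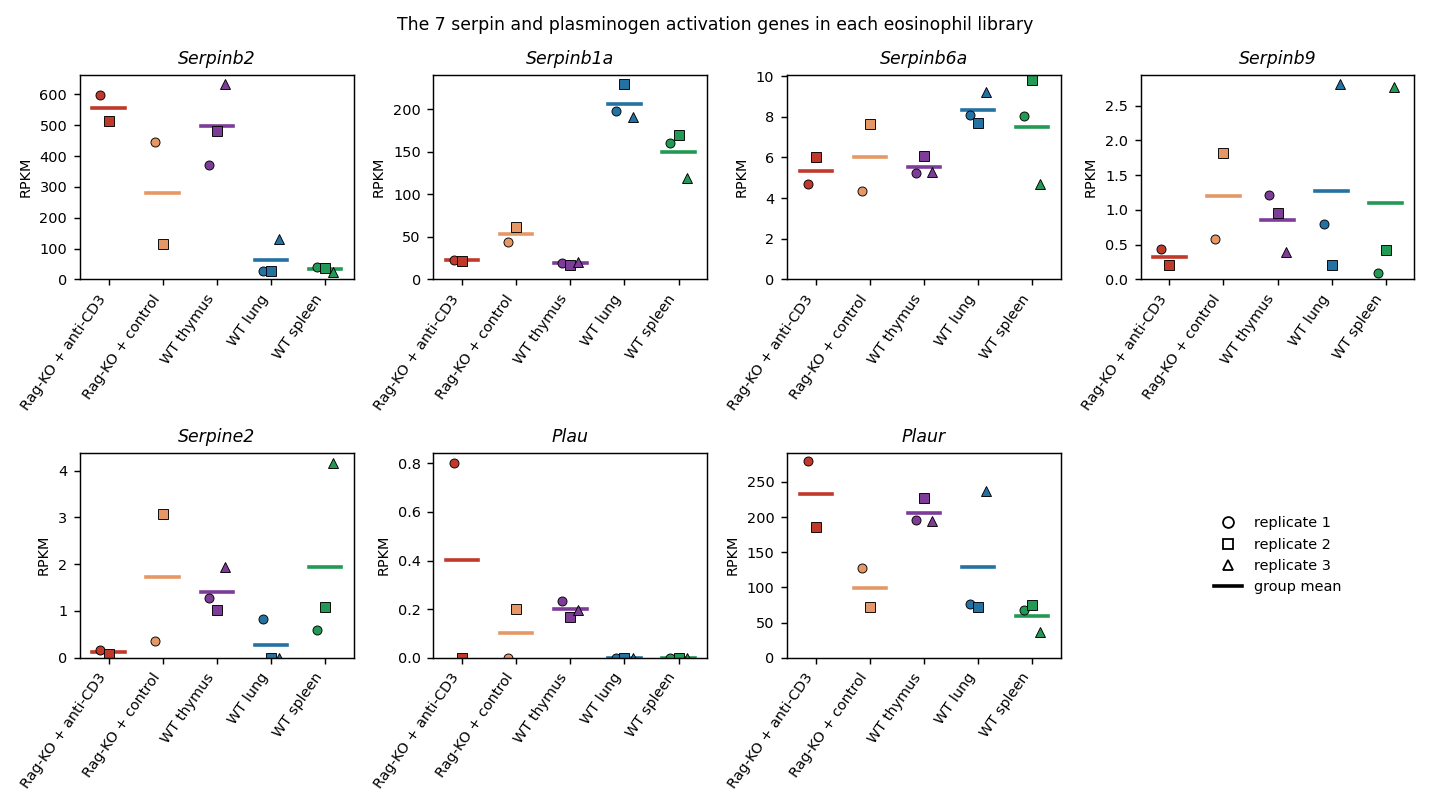
RPKM of each member in each library (points, shape by replicate number) with the group mean (line), on linear axes that start at 0 and differ between genes. Serpinb2 lay between 373 and 634 RPKM in WT thymus and at 131 or below in every WT lung and WT spleen library, and Serpinb1a showed the opposite order with 16.5 to 20.8 RPKM in WT thymus and 119 or more in the periphery.

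Serpinb1a (ENSMUSG00000044734, chr13:32842092-32851185, minus strand), the inhibitor of neutrophil granule proteases, ran the other way. Its level was 22.6 and 22.2 RPKM in Rag-KO + anti-CD3, 43.7 and 62.1 in Rag-KO + control, and 19.7, 16.5 and 20.8 in WT thymus. It was 198, 230 and 191 in WT lung and 161, 170 and 119 in WT spleen. No thymic library reached the lowest peripheral one, and Rag-KO + control lay between the WT thymus libraries and both peripheral organs. WT thymus was lower than WT spleen by a log2 fold change of −2.91 ± 0.24 (SE, adjusted p = 5.83e-04, limma with Benjamini-Hochberg adjustment, lower in 3 of 3 libraries). Of the 6 members other than Serpinb2, 5 were abundant enough to be tested and Serpinb1a was the 1 called, against 2.29% of the 9096 genes tested in this comparison. To be called, a gene had to change by more than 1 on the log2 scale with an adjusted p below 0.05. The groups did not overlap for 2 of the 5, Serpinb1a and Plaur, and for 21% of all genes. Against WT lung the change was −3.38 ± 0.24 (adjusted p = 2.07e-04), again the 1 call among the 5 tested, where 3.24% of all genes were called. Here 3 of the 5, Serpinb1a, Serpinb6a and Serpine2, did not overlap between the groups, as did 30.5% of all genes. Over 24 alternatives each, both calls stood, with log2 fold changes of −3.24 to −2.68 against WT spleen and −3.61 to −3.14 against WT lung. Markers of other cells moved with these comparisons too. Of 14 thymocyte and T cell markers 8 were tested. Against WT spleen 7 were called higher in WT thymus and 0 lower, and the counts were the same against WT lung. Of 8 endothelial markers 5 were tested and 4 called lower in WT thymus than in WT lung, with all 8 above 0 in every WT lung library and 2 or 3 in each WT thymus library. Their summed level overlapped, at 11.8 to 38.2 RPKM in WT thymus and 23.9 to 43.7 in WT lung, with Pecam1 at up to 38.0 RPKM and Cdh5 at 0 to 0.0937 RPKM in WT thymus. Of 8 B cell markers 4 were tested and 2 called lower in WT thymus than in WT spleen, with summed levels of 6.12 to 9.59 RPKM in WT thymus, where Ms4a1 was at 0, and 13.7 to 49.8 in WT spleen. Summed eosinophil markers were 3239 to 4391 RPKM in WT thymus, 2021 to 2821 in WT lung and 2028 to 2841 in WT spleen, with 1 of the 10 called higher in WT thymus against each organ, Prg2. The part of these cells in the level of Serpinb1a was not tested. Without WT spleen replicate 3, the library rich in neutrophil markers, the change against WT spleen was −3.06 (adjusted p = 9.52e-05).

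Serpinb2 and Serpinb1a together made up most clade B serpin RNA in every library, and which of them led differed between thymus and periphery. The high Serpinb2 level in thymus chose the set, so these shares and ratios are description only. Of 27 clade B genes, 14 were at 0 in every library and 5 reached 1 RPKM in any library (Serpinb2, Serpinb1a, Serpinb6a, Serpinb9 and Serpinb10). The genes lie in clusters on chromosome 1 (12 genes, with Serpinb2) and chromosome 13 (15 genes, with Serpinb1a, Serpinb6a and Serpinb9). In the chromosome 1 cluster only Serpinb2 and Serpinb10 reached 1 RPKM. Serpinb2 took 95.4% and 94.7% of the summed RPKM in Rag-KO + anti-CD3, 89.7% and 60.7% in Rag-KO + control, and 93.4%, 95.1% and 95.9% in WT thymus. It took 11.9%, 10.3% and 38.3% in WT lung and 19.8%, 17.2% and 14.9% in WT spleen. RPKM is per length, so levels of different genes can be set side by side: within a library Serpinb2 was 19.0 to 30.5 times Serpinb1a in WT thymus, 0.119 to 0.687 times in WT lung and 0.190 to 0.260 times in WT spleen. The ratio was 26.5 and 23.1 in Rag-KO + anti-CD3 and 10.2 and 1.83 in Rag-KO + control.

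**Figure D2:**
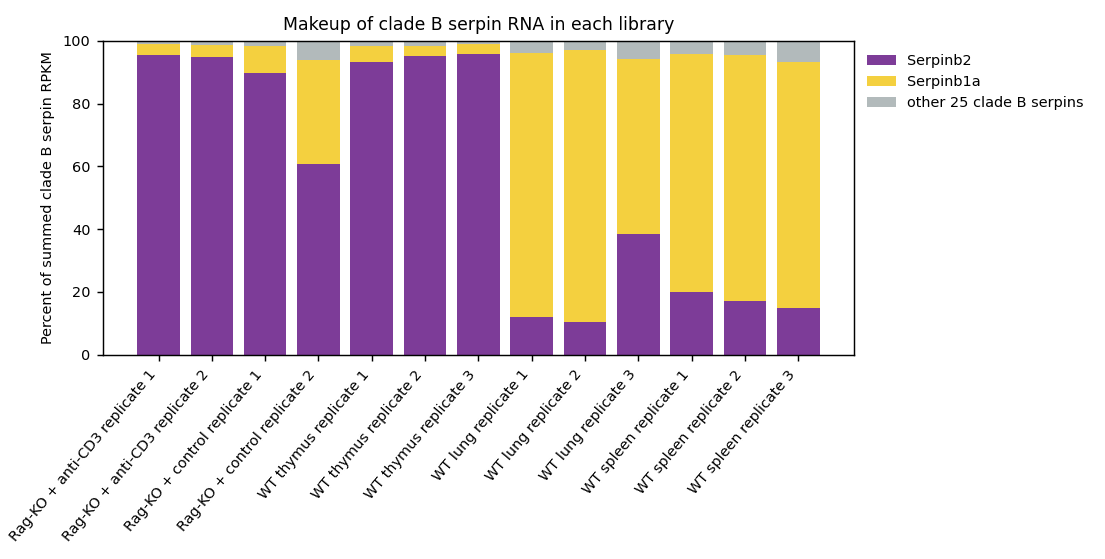
Share of the summed RPKM of 27 clade B serpins taken by Serpinb2, by Serpinb1a and by the other 25 genes, in percent, for each library. Serpinb2 led in all 7 thymic libraries, at 60.7% or more, and Serpinb1a in all 6 peripheral libraries, at 55.8% or more.

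Plaur (ENSMUSG00000046223), the urokinase receptor, was high in most thymic libraries. Its level was 279 and 186 RPKM in Rag-KO + anti-CD3, 128 and 71.6 in Rag-KO + control, and 196, 228 and 194 in WT thymus. It was 76.7, 72.3 and 237 in WT lung and 67.4, 74.9 and 36.0 in WT spleen. All WT thymus libraries were above all WT spleen libraries, but WT lung replicate 3 was the highest of the 9 WT libraries. The test did not pass against WT spleen (log2 fold change 1.84, 95% interval 0.80 to 2.88, adjusted p = 0.0920) or against WT lung (0.90, interval −0.14 to 1.94, adjusted p = 0.419). Against WT spleen the adjusted p ran from 5.81e-05 to 0.370 over 24 alternatives and passed in 5 of them, among them the fit of all 13 libraries (0.0490) and the fit without WT lung replicate 3 (0.0181). With replicates 1 and 2 of each organ alone, the log2 fold change was 1.56 against WT spleen (adjusted p = 5.81e-05) and 1.49 against WT lung (6.18e-05), and both were called.

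The ligand of that receptor was barely detected. Plau (urokinase, chr14:20836660-20843385, plus strand) gave 10 and 0 reads in Rag-KO + anti-CD3, 0 and 3 in Rag-KO + control, and 3, 2 and 3 in WT thymus, which is at most 0.803 RPKM. It gave 0 reads in every WT lung and WT spleen library, which allows up to 0.240 RPKM in WT lung and 0.266 RPKM in WT spleen, for counting error alone. Plau therefore failed the filter on low values and was not tested. Of the other genes of plasminogen activation, Hpn, the membrane serine protease hepsin, was at 1.24 RPKM or less. Of the 14 genes of the list, fixed with earlier results of these data known, Serpinb2 and Plaur alone exceeded 5 RPKM in any library. Besides Serpinb2 in contrasts with WT thymus, 2 to 5 of them were tested and limma called 0 in each of the 6 comparisons, with 0 or 1 at an unadjusted p under 0.05 and 0 called by voom.

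Serpine2 (protease nexin 1, chr1:79794197-79861180, minus strand) was low throughout. It had 0.164 and 0.0756 RPKM in Rag-KO + anti-CD3, 0.364 and 3.08 in Rag-KO + control, and 1.27, 1.02 and 1.95 in WT thymus. It had 0.823 RPKM in WT lung replicate 1, was at 0 in WT lung replicates 2 and 3, and had 0.591, 1.08 and 4.17 RPKM in WT spleen. The 2 highest values were in the libraries richest in neutrophil markers, Rag-KO + control replicate 2 and WT spleen replicate 3, and the part of those cells in the level was not tested. No comparison of Serpine2 was called. The largest of its changes was −1.09 in Rag-KO + anti-CD3 against WT thymus (95% interval −2.25 to 0.07).

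Serpinb6a (ENSMUSG00000060147, chr13:33917918-34002794), an inhibitor of cathepsin G, had the narrowest span over libraries relative to its level, 4.37 to 9.81 RPKM. It had 4.71 and 6.01 RPKM in Rag-KO + anti-CD3, 4.37 and 7.65 in Rag-KO + control, and 5.21, 6.05 and 5.28 in WT thymus. It had 8.08, 7.71 and 9.20 in WT lung and 8.06, 9.81 and 4.69 in WT spleen. Every WT thymus library lay below every WT lung library, but the change of −0.52 was not called (95% interval −1.17 to 0.13, adjusted p = 0.462). The span of Serpinb6a overlaps those of Nqo2 and Ripk1 on the other strand, which reached at most 38.3 and 15.5 RPKM. Gene spans were compared, not exons. Since the kit does not mark strand, reads of these genes cannot be told apart wherever exons overlap.

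Serpinb9 (chr13:33003250-33017957, plus strand), known in human cells as the granzyme B inhibitor, was scarce and followed single libraries rather than groups. It had 0.435 and 0.200 RPKM in Rag-KO + anti-CD3, 0.578 and 1.81 in Rag-KO + control, and 1.21, 0.958 and 0.401 in WT thymus. It had 0.793, 0.209 and 2.81 in WT lung and 0.0979, 0.428 and 2.76 in WT spleen. The 3 highest values, 40 to 52 reads each, were those of Rag-KO + control replicate 2, WT lung replicate 3 and WT spleen replicate 3. The 7 NK cell markers summed to 46.9, 36.9 and 277 RPKM in these libraries and to at most 7.26 in the others, and their part in the level was not tested. Serpinb9 was called in no comparison, with log2 fold changes of −0.68 to 0.21.

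WT lung and WT spleen differed in no member past the test, with wide intervals. Of the 7 members 6 were tested and 0 were called by limma, against 0.704% of all genes, with Serpine2 the 1 member at an unadjusted p under 0.05, and 0 were called by voom on recovered reads. Serpinb1a was the 1 member of 6 whose groups did not overlap, against 10.6% of all genes, and its WT lung level differed by a log2 fold change of 0.47 (95% interval −0.08 to 1.02, adjusted p = 0.933). Plaur differed by 0.94 (interval −0.10 to 1.98) and by 0.39 without WT lung replicate 3.

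**Figure D3:**
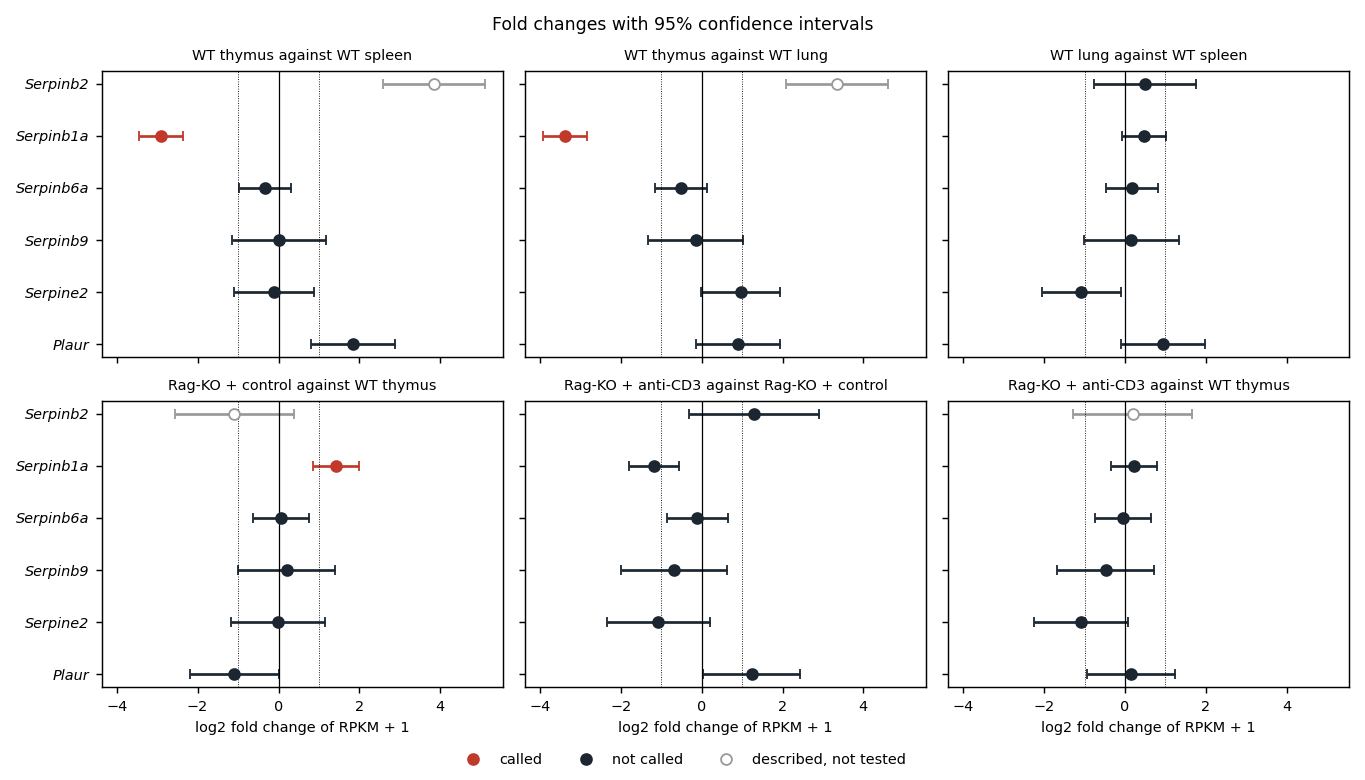
Log2 fold changes of RPKM + 1 (points) with 95% confidence intervals (bars) for the 6 members that passed the filter, in 6 comparisons, where dotted lines mark the fold limit. Serpinb1a was called in 3 comparisons, at −2.91, −3.38 and 1.42, and the open grey points of Serpinb2 were described and not tested.

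In Rag-KO + control against WT thymus, Serpinb1a was higher in the Rag-deficient libraries. Its mean was 52.9 ± 13 RPKM in Rag-KO + control (SD, n = 2) and 19.0 ± 2.23 in WT thymus (n = 3), a log2 fold change of 1.42 ± 0.26 (SE, adjusted p = 0.0221). It was the 1 call among 5 tested members other than Serpinb2, where 1.09% of 9763 genes were called. Groups did not overlap for 2 of the 5, Serpinb1a and Plaur, and for 25% of all genes. The call was lost without WT thymus replicate 1 (adjusted p = 0.0962) or 2 (0.118), without Rag-KO + control replicate 2 (0.346) and without either Rag-KO + anti-CD3 library (0.0507 and 0.0508), with log2 fold changes of 1.17 to 1.67 over all 13 omissions. Where a Rag-KO + control or Rag-KO + anti-CD3 library is left out, that group is 1 library and the spread comes from the remaining groups. Rag-KO + control replicate 2 was both the Rag1-/- library and the one rich in neutrophil and monocyte markers, so its genotype and its other marker RNA cannot be told apart. Replicate 1, at 43.7 RPKM, was above all WT thymus libraries. Its neutrophil markers summed to 1019 RPKM, against 487, 597 and 2462 in WT thymus replicates 1, 2 and 3. Their part in the Serpinb1a level was not tested.

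Plaur was lower in both Rag-KO + control libraries than in every WT thymus library, by −1.09 (95% interval −2.19 to 0.00, adjusted p = 0.653), which was not called. Serpinb2 differed by −1.10 in the same fit, with no test. That value rested on Rag-KO + control replicate 2: it was −0.12 without that library and −2.08 without replicate 1. Without the 4 libraries that deviate in a like way, it was 0.08.

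Rag-KO + anti-CD3 against Rag-KO + control asks what induced thymocyte differentiation changes, and none of the 6 members tested was called by limma, where 0.133% of all genes were. At an unadjusted p under 0.05 there were 2, Serpinb1a and Plaur, and voom on recovered reads called 0. Serpinb2 was higher in both Rag-KO + anti-CD3 libraries than in both Rag-KO + control libraries, by 1.29 (95% interval −0.32 to 2.91, adjusted p = 1). The size depended on 1 control library: it was 0.31 without the Rag1-/- library and 2.27 without the Rag2-/- control. Plaur differed by 1.24 (interval 0.04 to 2.44, adjusted p = 0.915). Serpinb1a averaged 22.4 ± 0.315 RPKM in Rag-KO + anti-CD3 and 52.9 ± 13 in Rag-KO + control (SD, n = 2 each), a change of −1.18 (interval −1.81 to −0.56, adjusted p = 0.211). This change was called in 1 of 27 alternatives, without WT spleen replicate 3, at an adjusted p of 0.0299. Without the 4 libraries that deviate in a like way it was −0.93, below the fold limit, with Rag-KO + control reduced to 1 library. Neutrophil markers moved with this comparison, at 68.9 and 204 RPKM in Rag-KO + anti-CD3 against 1019 and 5274 in Rag-KO + control replicates 1 and 2. Both Rag-KO + anti-CD3 libraries were Rag2-/-, whereas control replicate 2 was Rag1-/-. The part of other cells or of genotype in these changes was not tested. The groups did not overlap for 5 of the 6 members, and for 41.5% of all genes, since 2 libraries stood against 2.

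Between Rag-KO + anti-CD3 and WT thymus no member passed the test. Of the 5 members tested 0 were called by limma, where 0.0819% of all genes were, 0 had an unadjusted p under 0.05, and voom called 0. Groups did not overlap for 2 of the 5, Serpinb1a and Serpine2, and for 29.3% of all genes. Serpinb1a differed by 0.23 (95% interval −0.34 to 0.80), Plaur by 0.15 (−0.95 to 1.24) and Serpinb6a by −0.04 (−0.74 to 0.65). Serpinb2 differed by 0.19, with no test. The comparisons of Rag-KO + control with WT thymus and of Rag-KO + anti-CD3 with Rag-KO + control share the control libraries, so their opposite signs are not separate evidence.

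The genes whose pattern was most like that of Serpinb2 over the 13 libraries were Cish, Plk3, Hbegf, Atp2c1 and Skil, taken as the 5 highest Pearson correlations of log2(RPKM + 1) among 4899 genes with a mean of at least 10 RPKM in a group. The libraries form organ groups and share their depth, so the correlations describe these libraries and carry no test. Cish, a feedback inhibitor of cytokine signalling through STAT5, had r = 0.97, with means of 88.4 RPKM in Rag-KO + anti-CD3, 55.7 in Rag-KO + control, 119.7 in WT thymus, 27.5 in WT lung and 19.6 in WT spleen. Plk3, a stress-responsive kinase, had r = 0.97 and means of 62.5, 27.1, 77.7, 12.2 and 1.75 RPKM in the same groups and order. Hbegf, a growth factor of the EGF family, had r = 0.96 and means of 24.3, 13.6, 24.3, 6.82 and 6.13 RPKM. Atp2c1, a calcium pump of the Golgi, had r = 0.96 with a narrower span of 63.2 RPKM in WT thymus down to 32.7 in WT spleen, and Skil, a repressor of TGF-beta signalling, had r = 0.96 with 17.8 and 21.3 RPKM in Rag-KO + anti-CD3 and WT thymus. All 5 shared with Serpinb2 a lower level in Rag-KO + control replicate 2 than in replicate 1 and a higher level in WT lung replicate 3 than in the other WT lung libraries. Plk3, for example, had 45.9 and 8.32 RPKM in Rag-KO + control replicates 1 and 2 and 2.26, 3.60 and 30.8 RPKM in WT lung.

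**Figure D4:**
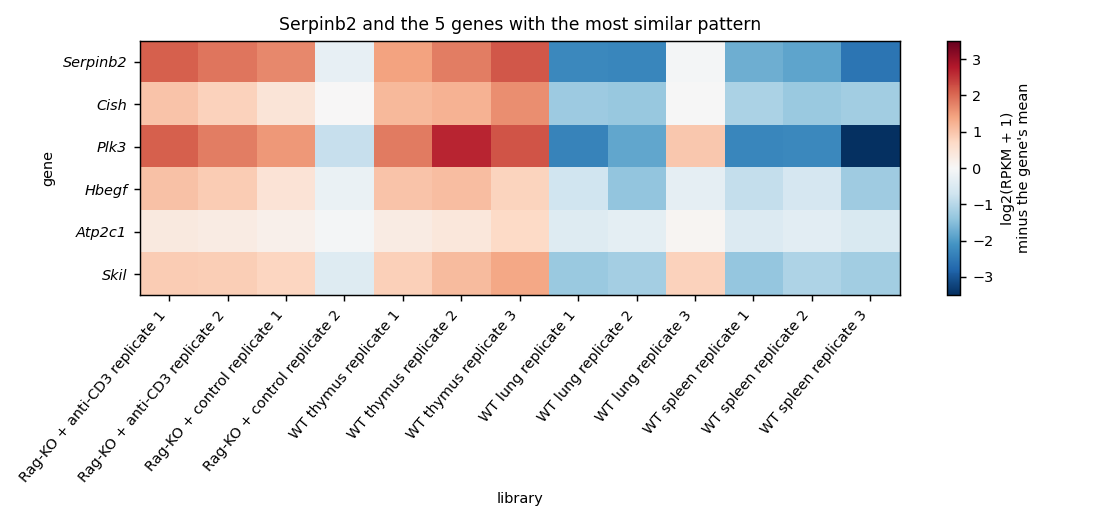
Log2(RPKM + 1) of Serpinb2 and of the 5 genes with the most similar pattern, each minus its own mean over 13 libraries (color), by library. The genes were chosen for this likeness, and Rag-KO + control replicate 2 and WT lung replicate 3 lie between the other thymic and peripheral libraries in Serpinb2.

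Genes around the plasminogen system were counted in lists. Of 15 cell surface partners of plasminogen and uPAR, 12 were tested and 1 was called, S100a10, which with annexin A2 (Anxa2) binds plasminogen. It was called in WT thymus against WT spleen and against WT lung, where 2.29% and 3.24% of all genes were called. In every other comparison 0 partners were called. S100a10 had 326, 359 and 372 RPKM in WT thymus, against 673, 778 and 892 in WT spleen and 891, 839 and 885 in WT lung. It was lower in WT thymus than in WT spleen (log2 fold change −1.14, adjusted p = 0.0374) and than in WT lung (−1.31, adjusted p = 0.0145), while the median of the list was 0.14 and −0.11 and that of all genes 0.25 and 0.20. The call stood in 12 and 16 of 22 alternatives and was lost, among others, with upper-quartile scaling and without any 1 of the WT thymus libraries. The partners of highest mean level, the integrin subunits Itgb2 and Itgam and the plasminogen receptor Eno1, were not called. Itgb2 and Itgam, which form the integrin that binds uPAR and whose Itgam product (CD11b) was used in the sort, were lowest in WT spleen replicate 3, at 109 and 56.7 RPKM.

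Of 13 matrix metalloproteases and their inhibitors, 4 were tested among WT organs and 5 in the fit with Rag-KO libraries. Mmp9, the gelatinase that plasmin can help to activate, was the 1 called in WT thymus against WT spleen, in WT thymus against WT lung and in Rag-KO + control against WT thymus, where 2.29%, 3.24% and 1.09% of all genes were called in that order. It had 138 and 115 RPKM in Rag-KO + anti-CD3, 245 and 407 in Rag-KO + control, and 27.4, 23.9 and 37.8 in WT thymus. It had 502, 328 and 352 RPKM in WT lung and 375, 364 and 105 in WT spleen. WT thymus was the lowest group, below every other library. The change was −3.02 against WT spleen (adjusted p = 0.0109) and −3.69 against WT lung (adjusted p = 0.00286), and it was 3.39 in Rag-KO + control against WT thymus (adjusted p = 0.00593). The last call was lost without Rag-KO + control replicate 2, where 1 control library remains. That library was both the Rag1-/- one and the one rich in neutrophil and monocyte markers. Its genotype and its other marker RNA cannot be told apart, and their part in the Mmp9 level was not tested. The call against WT spleen was lost without WT thymus replicate 1 or 2, at an adjusted p of up to 0.0841. Over all alternatives the change was 3.03 to 3.76 in Rag-KO + control against WT thymus and −3.80 to −2.71 in WT thymus against WT spleen. Mmp25, Timp2 and Mmp8, the next in level, were not called.

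Of 34 serpins of other clades, Serpina11 was the only one above 5 RPKM. Limma and voom called 0 of the 2 to 6 tested in each comparison, with 0 to 2 at an unadjusted p under 0.05. It had 87.4 and 82.4 RPKM in Rag-KO + anti-CD3, 44.2 and 37.7 in Rag-KO + control, and 112, 100 and 80.0 in WT thymus. It had 36.9, 30.05 and 35.7 in WT lung and 45.2, 44.7 and 8.97 in WT spleen. All WT thymus libraries were above all peripheral ones, but the change was not called against WT spleen (1.82, adjusted p = 0.157) or WT lung (1.48, adjusted p = 0.214).

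Proteases listed as targets of clade B serpins included leukocyte serine proteases, cathepsins and inflammatory caspases. The list was drawn up for the clade as a whole, not for the members followed. No protease of it was called in any of the 6 comparisons, with 9 tested among WT organs and 14 in the fit of 13 libraries. By limma, 0 to 2 of them had an unadjusted p under 0.05 in a comparison, and voom called 0. Cathepsin H (Ctsh) had the highest mean over the libraries, with 668 and 494 RPKM in Rag-KO + anti-CD3, 453 and 492 in Rag-KO + control, 657, 719 and 744 in WT thymus, 261, 252 and 265 in WT lung and 287, 288 and 83.5 in WT spleen. The adjusted p for Ctsh in WT thymus was 0.0643 against WT spleen (1.88) and 0.133 against WT lung (1.44). Elane (neutrophil elastase) and Prtn3 (proteinase 3), the targets of Serpinb1a, were found where neutrophil markers were high. Elane had 18.6 and 1002 RPKM in Rag-KO + control, 94.8 in WT thymus replicate 3 and 999.8 in WT spleen replicate 3, and was at 0 in the other 9 libraries. Prtn3 had 4.63 and 247 RPKM in Rag-KO + control, 26.7 in WT thymus replicate 3 and 254 in WT spleen replicate 3. Among thymic libraries Serpinb1a was highest in Rag-KO + control replicate 2, at 62.1 RPKM. Among WT thymus libraries it was highest in replicate 3, at 20.8 RPKM against 19.7 and 16.5. Among WT spleen libraries it was lowest in replicate 3, at 119 RPKM. The part of neutrophil RNA in its level was not tested. Ctsb, the abundant lysosomal cathepsin B, was also not called and had its highest levels in Rag-KO + control replicate 2 (171 RPKM) and WT lung replicate 3 (148 RPKM).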

How the data were processed

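Eosinophils were sequenced by the authors from SMART-seq v.4 libraries on an Ion Proton instrument and analysed in CLC Genomics Workbench. The authors deposited RPKM values, read counts scaled to gene length and library size, for 41743 genes in 13 libraries, and mm10 is the build in the submitters' processing notes. Mapping and counting settings are not given in the sources used here. With annotated gene lengths (GENCODE mouse release 21) the values of 5888 genes, Serpinb2, Serpinb9 and Plau among them, were whole reads within a tolerance of 0.001. For the rest reads are known up to a factor. Library totals, recovered in the same way, ran from 4765122 to 6431540 reads, and 3 reads were taken as the limit that a value of 0 allows, for counting error only, since no molecular identifiers were used.

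The scale of all fits was log2(RPKM + 1), in limma 3.58.1 under R 4.3.3 (intensity trend, Benjamini-Hochberg adjustment over all genes tested) with calls at an adjusted p below 0.05 and a change of more than 1 on the log2 scale. WT organs were compared in 9 libraries over 9096 genes with at least 1 RPKM in 3 libraries, and Rag-KO groups in 13 libraries over 9763 genes with at least 1 RPKM in 2 libraries. Serpinb9 passed these filters through 1 library of each WT organ, and Serpine2 through WT thymus and WT spleen. Confidence intervals are unadjusted 95% intervals. The members and lists were chosen with earlier results of these data known. The genes named are, with 1 exception that is not reported here, all members, called genes of the lists with a mean of at least 5 RPKM in the higher group, the 4 genes of each list with the highest mean, and the 5 genes most correlated with Serpinb2. The main fits did not pair libraries, so their p-values take no account of replicate numbers, which entered as a block among the alternatives. Deviations of same-numbered libraries of WT organs correlated at 0.31 to 0.58 over genes (different numbers, −0.54 to 0.42). Number 3 stood apart, whereas numbers 1 and 2 differed less. WT thymus replicate 2, for example, correlated at 0.42 with WT spleen replicate 1 and at 0.51 with replicate 2. The Rag-KO number 1 pair correlated at −0.03. Alternatives were other pseudocounts, filters and scalings, no trend, no fold limit, a replicate block, a term for or the omission of the 4 libraries that deviate together, other sets of libraries, the study's Dunnett comparisons on RPKM (scipy 1.17.1), and leaving out each library. Voom on recovered reads and both fits that leave out 2 libraries were added once the data had been seen. The code was tested on simulated data. Python 3.11.15 and matplotlib 3.10.9 were used for the other steps.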

Additional observations from a re-analysis of the deposited data

How the results depend on the processing

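Of 894 values of single members under alternatives, 840 were counted as unchanged. For tested members this meant the same direction and side of the threshold. For Serpinb2 in contrasts with WT thymus, which was not tested, it meant a value within 1 pooled SD of the main value. Both Serpinb1a calls of WT thymus against the peripheral organs stood in all alternatives. The replicate block changed no member's call (Serpinb1a −2.91 against WT spleen and −3.38 against WT lung). The number of members called in WT thymus against WT spleen was 2, with Plaur as the second, without the 4 libraries that deviate in a like way, with all 13 libraries fitted, without WT lung replicate 3 and WT spleen replicate 3, and by the study's Dunnett rule, and 1 to 2 when leaving out each library. Against WT lung it was 2 without those 4 libraries and without WT lung replicate 3 and WT spleen replicate 3, and 1 when leaving out each library. It was 0 to 1 in Rag-KO + control against WT thymus and 0 to 1 in Rag-KO + anti-CD3 against Rag-KO + control when leaving out each library. The cause of these changes was not tested. Some changes turned their sign, and none of those tested was called. Most were near 0, but Serpinb2 in WT lung against WT spleen started from 0.50. Serpinb2 in Rag-KO + control against WT thymus, which was not tested, went from −1.10 to 0.08 without the 4 libraries. In WT thymus against WT spleen, Serpinb9 was −0.035 with a pseudocount of 5, −0.25 with upper-quartile scaling, −0.33 with quantile normalization, −0.36 by the Dunnett rule and −0.35 to 0.20 when leaving out each library. Serpine2 there was 0.24 without the 4 libraries, 0.067 with voom, 0.39 without WT lung replicate 3 and WT spleen replicate 3, and −0.46 to 0.39 when leaving out each library. In WT thymus against WT lung, Serpinb9 was −0.52 to 0.042 when leaving out each library. In WT lung against WT spleen, Serpinb9 was −0.032 with quantile normalization, Serpinb2 was −0.50 and Serpinb6a −0.15 both without the 4 libraries and without the pair of replicates numbered 3, and leaving out each library gave −0.20 to 0.53 for Serpinb9, −0.24 to 0.87 for Serpinb2 and −0.09 to 0.38 for Serpinb6a. In Rag-KO + control against WT thymus, Serpine2 was 0.040 with a pseudocount of 5 and 0.16 with the replicate block, and Serpinb6a was −0.0081 with the block, −0.30 without the 4 libraries and −0.28 without Rag-KO + control replicate 2 and WT spleen replicate 3, where Serpinb9 was −0.21. Leaving out each library there gave −0.81 to 0.78 for Serpine2, −0.28 to 0.41 for Serpinb6a and −0.21 to 0.63 for Serpinb9. In Rag-KO + anti-CD3 against Rag-KO + control, Serpinb6a was 0.24 in both of those fits and −0.45 to 0.24 when leaving out each library, and against WT thymus leaving out each library gave −0.19 to 0.11 for Serpinb6a and −0.14 to 0.44 for Plaur. At 0 to 52 reads per library, depth limits Plau, Serpinb9 and Serpine2, whose change in WT thymus against WT lung ran from 0.28 to 3.66 over alternatives.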
